A study of Arabidopsis thaliana with 30 samples.

Results

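The transcripts followed here come from 10 Arabidopsis thaliana genes of the iron-deficiency response, among 32679 entries counted in each library. They were chosen by locus, and all 10 are in every count table. BHLH38 (AT3G56970), BHLH39 (AT3G56980), BHLH100 (AT2G41240) and BHLH101 (AT5G04150) encode the basic helix-loop-helix factors of subgroup Ib. IMA1 (AT1G47400), IMA2 (AT1G47395) and IMA3 (AT2G30766) encode the short IRON MAN peptides. PYE (AT3G47640), BTS (AT3G18290) and FRO3 (AT1G23020) encode a transcriptional repressor, an E3 ubiquitin ligase and a mitochondrial ferric reductase. RNA of shoots was sequenced in 30 libraries, lettered A, B and C in each of 10 groups. The study concerns growth and genome interrogation, in which plants express artificial zinc-finger transcription factors that carry a regulatory domain. The groups labelled EAR are the lines EAR-13-068, EAR-15-025 and EAR-15-053 and the backgrounds of EAR pool 13 and EAR pool 15. Those labelled VP16 are the lines VP16-02-003 and VP16-05-014 and the backgrounds of VP16 pool 2 and VP16 pool 5, and the last group is the accession Col-0. EAR is the name of a plant repression motif and VP16 that of a viral activation domain. Each line was compared with the pool whose number it carries, and lines and pools with Col-0. The sources used here do not give the promoter, the target sequences, whether a line is 1 insertion event, the make-up of a pool, the age of the plants or their iron supply.

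When iron is short, the subgroup IVc factors and URI raise transcription of the subgroup Ib factors, PYE, BTS and the IMA genes. The Ib factors work with FIT in the root to switch on iron uptake, and they are also made in leaves, where FIT is scarce. BTS marks subgroup IVc factors for breakdown, and IMA peptides bind BTS and spare those factors, while PYE represses genes such as NAS4 and FRO3. In leaves with enough iron, transcripts of the Ib and IMA genes are known to be scarce.

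Reads assigned to genes ranged from 10076308 to 40780331 per library, with a median of 19024898. Of 5 photosynthesis markers, all were read in every library, with summed levels of 37982 to 59951 counts scaled to library size (CPM). Of 7 root markers, EXPA7 and RHD6 had no read in any library, and the list summed to 0.451 to 1.34 CPM. From earlier results of these data the libraries VP16 pool 2 C, EAR-15-053 C, EAR-13-068 C, VP16-05-014 C and EAR-15-025 A were known to stand apart from their groups. Where leaving them out changes which members are called, the calls without them, or their number, are given as well. An entry named VP16 had 3 reads over the Col-0 libraries, and its group means were 0.790 to 7.46 CPM in EAR groups and 8.81 to 23.6 CPM in VP16 groups.

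Neighbouring members form 2 pairs. On chromosome 3, BHLH38 and BHLH39 are both on the minus strand with 1144 bases between them, and their coding sequences are 83.7% identical with a longest shared run of 34 bases. On chromosome 1, IMA2 and IMA1 lie on the plus strand 1876 bases apart, and their coding sequences are 89.0% identical with a shared run of 55 bases. The sources used here do not say how the counting treated reads that could belong to either copy, so the values of IMA1 and IMA2, and of BHLH38 and BHLH39, are uncertain where the copies share sequence. The coding sequence of IMA3 is 58.0% identical to that of IMA1 and 56.5% to that of IMA2. Coordinates and sequences are from the RefSeq TAIR10.1 assembly, while the deposited counts were made on TAIR10.

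The coding sequences of the IMA genes are shown because they are the shortest members and their peptides are known to share their end. IMA1 lies at chr1:17385707-17386485, IMA2 at chr1:17382998-17383830 and IMA3 at chr2:13107583-13110480, all on the plus strand. Capitals mark the 9-base run that all 3 share, in the aspartate-rich end of the peptides, at bases 115 to 123 of IMA1 and IMA2 and 103 to 111 of IMA3. In IMA3 the same 9 bases follow again directly, left in lower case.
IMA1: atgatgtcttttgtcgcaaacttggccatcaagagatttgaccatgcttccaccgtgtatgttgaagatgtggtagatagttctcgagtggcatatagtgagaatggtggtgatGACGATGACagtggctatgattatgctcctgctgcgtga
IMA2: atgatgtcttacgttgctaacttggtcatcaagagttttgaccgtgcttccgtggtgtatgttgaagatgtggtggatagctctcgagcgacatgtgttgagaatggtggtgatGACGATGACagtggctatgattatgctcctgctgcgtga
IMA3: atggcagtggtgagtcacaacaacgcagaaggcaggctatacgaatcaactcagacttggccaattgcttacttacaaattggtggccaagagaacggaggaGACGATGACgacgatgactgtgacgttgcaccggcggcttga

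The 250 bases before the annotated start were searched for CACGTG, the core of the G-box that many basic helix-loop-helix factors bind and which is its own reverse complement. It was found before 3 of 10 members, BHLH38, BHLH100 and BTS, and before 6.49% of 27443 protein-coding genes. The looser form CANNTG, which includes CACGTG and reads the same on both strands, was found before 7 of 10 members and 55.3% of those genes. BHLH38 and BHLH100 are also the members that passed the test in EAR-13-068 against its pool, a result that rested on few libraries. In VP16-02-003 against its pool, BHLH100 and BTS passed, but so did BHLH101 and the 3 IMA genes, which have no CACGTG in their windows. The windows of BHLH38, BHLH100 and BTS are shown, capitals marking CACGTG. They lie at chr3:21085246-21085495 (minus strand), chr2:17199455-17199704 (minus strand) and chr3:6273716-6273965 (plus strand). A match is a description of the letters and does not show a binding site.
BHLH38: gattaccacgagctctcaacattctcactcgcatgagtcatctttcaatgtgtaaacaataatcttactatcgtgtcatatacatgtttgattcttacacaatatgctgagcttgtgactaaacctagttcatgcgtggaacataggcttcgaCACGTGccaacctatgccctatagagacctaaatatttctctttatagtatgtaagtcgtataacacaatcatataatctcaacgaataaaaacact
BHLH100: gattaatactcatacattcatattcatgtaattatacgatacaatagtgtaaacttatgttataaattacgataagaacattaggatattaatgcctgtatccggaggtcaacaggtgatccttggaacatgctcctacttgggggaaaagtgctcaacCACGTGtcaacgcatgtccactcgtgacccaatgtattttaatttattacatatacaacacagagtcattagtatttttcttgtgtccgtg
BTS: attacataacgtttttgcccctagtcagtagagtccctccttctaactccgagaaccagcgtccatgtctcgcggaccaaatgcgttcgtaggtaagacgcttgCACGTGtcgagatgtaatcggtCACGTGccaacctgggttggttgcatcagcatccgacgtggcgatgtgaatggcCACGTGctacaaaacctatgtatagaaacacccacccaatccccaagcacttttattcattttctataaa
The motif starts 97 bases before the annotated start of BHLH38 and 91 before that of BHLH100. In BTS it starts 146, 124 and 70 bases before it.

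The 4 Ib genes were the least abundant members. On the scale of median CPM per kilobase of exon over the 30 libraries, BHLH39 stood at 0.110, BHLH101 at 0.194, BHLH38 at 0.224 and BHLH100 at 0.258. IMA3 stood at 0.702, IMA1 at 1.57 and IMA2 at 2.16 on that scale, PYE at 3.46, FRO3 at 6.45 and BTS at 17.1. In reads, BHLH39 had 109 over all libraries, BHLH101 144, BHLH38 220 and BHLH100 248, while BTS had 53520. BHLH39 did not pass the filter on low counts, so 9 of 10 members were tested, and its fold changes come from a fit without the filter.

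**Figure D1:**
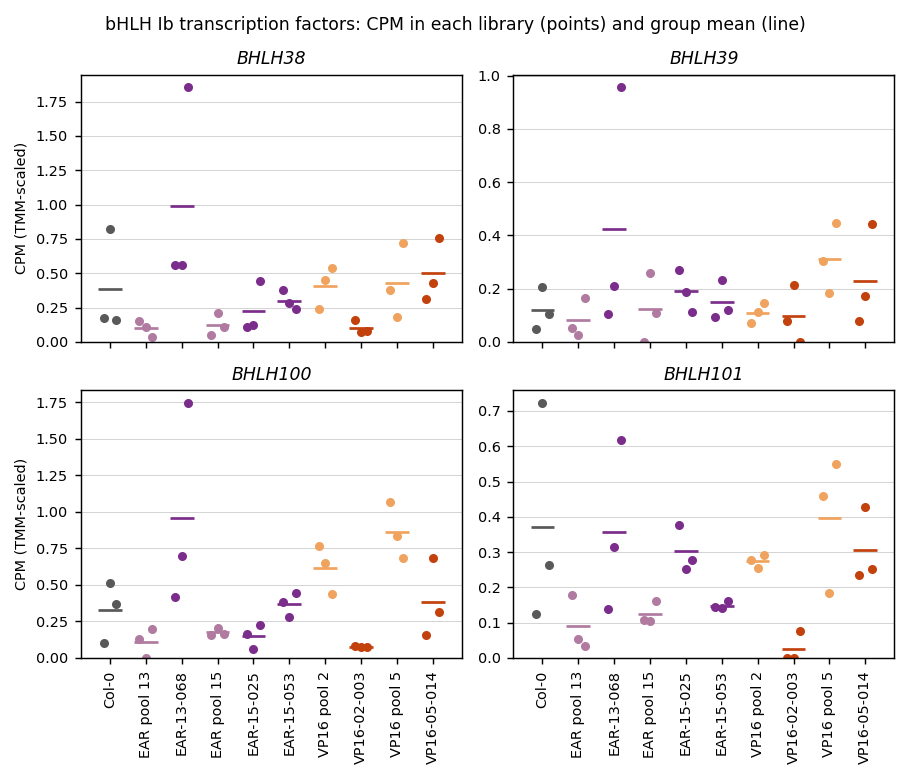
CPM scaled by TMM (y axis, linear) of the 4 subgroup Ib genes in each library, by group (x axis); points are libraries A, B and C from left to right and lines are group means. EAR-13-068 C holds the highest value of BHLH38 (1.86 CPM), BHLH39 (0.956) and BHLH100 (1.74), and VP16-02-003 sits at the bottom for BHLH100 and BHLH101.

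Group means of BHLH38 ran from 0.991 ± 0.749 CPM in EAR-13-068 through 0.499 ± 0.231 in VP16-05-014, 0.429 ± 0.271 in VP16 pool 5, 0.410 ± 0.150 in VP16 pool 2, 0.386 ± 0.381 in Col-0, 0.301 ± 0.0722 in EAR-15-053, 0.225 ± 0.189 in EAR-15-025, 0.123 ± 0.0784 in EAR pool 15 and 0.102 ± 0.0484 in VP16-02-003 to 0.0984 ± 0.0608 in EAR pool 13 (SD, n = 3 each). Every neighbouring pair of groups in that order overlapped. BHLH100, whose product acts beside BHLH101, had its highest mean in EAR-13-068 (0.954 ± 0.698 CPM) and its lowest in VP16-02-003 (0.0753 ± 0.00403, SD, n = 3 each). Between them stood VP16 pool 5 at 0.862 ± 0.192, VP16 pool 2 at 0.617 ± 0.165, VP16-05-014 at 0.385 ± 0.270, EAR-15-053 at 0.369 ± 0.0821, Col-0 at 0.328 ± 0.211, EAR pool 15 at 0.176 ± 0.0273, EAR-15-025 at 0.149 ± 0.0803 and EAR pool 13 at 0.109 ± 0.101 CPM. No neighbouring pair of groups was separate for BHLH100 either.

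BHLH101 means ran from 0.397 ± 0.190 CPM in VP16 pool 5, 0.370 ± 0.313 in Col-0, 0.358 ± 0.243 in EAR-13-068, 0.305 ± 0.106 in VP16-05-014, 0.302 ± 0.0669 in EAR-15-025 and 0.274 ± 0.0192 in VP16 pool 2 to 0.148 ± 0.0113 in EAR-15-053, 0.124 ± 0.0323 in EAR pool 15, 0.0889 ± 0.0791 in EAR pool 13 and 0.0255 ± 0.0441 in VP16-02-003 (SD, n = 3 each). Of neighbouring groups in that order, VP16 pool 2 and EAR-15-053 did not overlap, and all others did. BHLH39 ran from 0.424 ± 0.464 CPM in EAR-13-068 to 0.0816 ± 0.0745 in EAR pool 13 (SD, n = 3 each), with every neighbouring pair overlapping. Its 8 other groups lay between 0.0971 ± 0.107 CPM in VP16-02-003 and 0.312 ± 0.131 in VP16 pool 5.

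The IMA genes had their highest means in the VP16 pools. IMA1 stood at 3.29 ± 1.45 CPM in VP16 pool 5, 3.00 ± 0.0702 in VP16 pool 2 and 2.44 ± 1.60 in VP16-05-014, and then at 1.43 ± 0.420 in EAR-13-068, 1.37 ± 0.240 in Col-0, 1.21 ± 0.233 in EAR-15-053, 1.14 ± 0.204 in EAR pool 15, 0.834 ± 0.240 in VP16-02-003, 0.829 ± 0.116 in EAR pool 13 and 0.682 ± 0.291 in EAR-15-025 (SD, n = 3 each). IMA2 followed a similar order, from 3.85 ± 2.35 CPM in VP16 pool 5 and 3.39 ± 0.268 in VP16 pool 2 to 0.948 ± 0.450 in EAR-15-025 and 0.882 ± 0.304 in VP16-02-003, with Col-0 at 2.13 ± 0.440. In that order Col-0 did not overlap EAR pool 15 (1.36 ± 0.266 CPM), the group just below it. IMA3 ran from 4.33 ± 1.87 CPM in VP16 pool 5 through 3.00 ± 0.537 in VP16 pool 2 and 2.75 ± 1.13 in EAR-13-068 to 0.786 ± 0.251 in VP16-02-003, with Col-0 at 1.81 ± 0.477. All neighbouring groups overlapped for IMA1 and IMA3.

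Spreads in 2 groups came from single libraries. In VP16-05-014, library C stood at 4.17 CPM for IMA1, 4.80 for IMA2 and 4.36 for IMA3, against 1.02 to 2.14, 1.41 to 1.80 and 0.861 to 1.28 in A and B. In VP16 pool 5, library A stood at 4.96, 6.56 and 6.48 CPM, against 2.33 to 2.59, 2.31 to 2.68 and 3.14 to 3.36 in B and C.

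**Figure D2:**
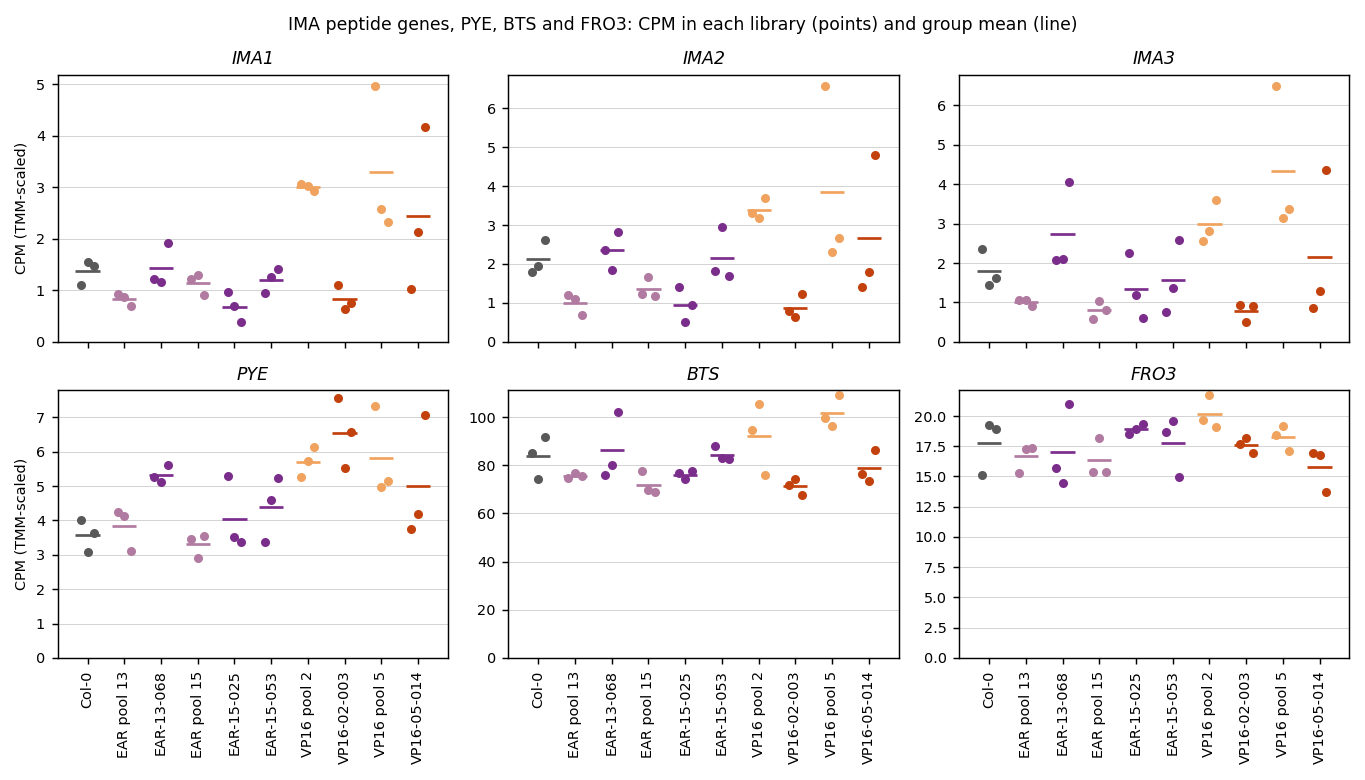
CPM scaled by TMM (y axis, linear, a separate scale for each gene) of IMA1, IMA2, IMA3, PYE, BTS and FRO3 in each library, by group (x axis); points are libraries A, B and C from left to right and lines are group means. VP16 pool 2 lies above VP16-02-003 without overlap for the IMA genes, and VP16-05-014 C and VP16 pool 5 A lie above the others of their groups.

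PYE, BTS and FRO3 varied less between groups. The highest over the lowest group mean was 1.98 for PYE, 1.43 for BTS and 1.28 for FRO3, against 4.36 to 5.51 for the IMA genes and 5.19 to 15.6 for the Ib genes. PYE was highest in VP16-02-003 (6.55 ± 1.01 CPM) and lowest in EAR pool 15 (3.30 ± 0.345, SD, n = 3 each), with Col-0 next to lowest at 3.58 ± 0.465. BTS was highest in VP16 pool 5 (101.7 ± 6.55 CPM) and lowest in VP16-02-003 (71.2 ± 3.44), and FRO3 ran from 20.2 ± 1.36 in VP16 pool 2 to 15.8 ± 1.81 in VP16-05-014 (SD, n = 3 each). Every neighbouring pair of groups overlapped for these 3 genes.

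EAR-13-068 was set against EAR pool 13 to find what marks the line among plants of its pool. BHLH38 and BHLH100 rose, by about 8-fold in pooled reads, and no other member passed the test. In bulk shoots, fewer cells of a type in one group and less RNA per cell cannot be told apart. Nothing in the labels says whether A, B and C are separate plants, so p-values measure the spread between these libraries, which may be technical. Called members, those with an adjusted p under 0.05, were 2 of 9 tested, both higher in edgeR's quasi-likelihood test, where 0.235% of 19566 genes were called in either direction and 0.118% higher. BHLH38, a partner of FIT, stood at 0.557, 0.561 and 1.86 CPM in libraries A, B and C of the line and at 0.154, 0.108 and 0.0333 in the pool. The line's 3 libraries were all above the pool's, and C was over 3 times A and B. The reads behind this were 65 in the line and 11 in the pool, a depth-scaled ratio of 8.35 (exact 95% interval 4.37 to 17.6, counting error only). With all libraries the log2 fold change was 3.09 (SE 0.60, edgeR adjusted p = 0.0369).

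BHLH100 stood at 0.418, 0.701 and 1.74 CPM in the line and at 0.128, 0 and 0.200 in the pool. Again the groups did not overlap and C was the highest. With 63 against 11 reads the depth-scaled ratio was 8.10 (exact 95% interval 4.23 to 17.0, counting error only), and the log2 fold change was 3.02 (SE 0.58, edgeR adjusted p = 0.0369). Both calls rested on few libraries. BHLH38 and BHLH100 had edgeR adjusted p-values of 0.153 and 0.149 without EAR-13-068 C, 0.0587 and 0.0853 without B, 0.0856 and 0.107 without pool library A, and 0.0957 each without pool library B. BHLH38 had 0.162 without pool library C. DESeq2 called BHLH100 (adjusted p = 0.00372) and gave no adjusted p for BHLH38, whose log2 fold change there was 3.26 (unadjusted p = 1.36e-05). Without the 5 libraries that stand apart, both were called at 2.38 and 2.37 (edgeR adjusted p = 0.0396 and 0.0438), and a fit to the 6 libraries alone gave adjusted p = 0.0982 and 0.128.

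BHLH101 stood at 0.139, 0.315 and 0.619 CPM in the line and 0.179, 0.0540 and 0.0333 in the pool, overlapping in A (log2 fold change 1.75, SE 0.58, edgeR adjusted p = 0.244). BHLH39 had 0.105, 0.210 and 0.956 CPM in the line and 0.0513, 0.0270 and 0.167 in the pool, where library C again held most reads (17 of 26) and the groups overlapped. The IMA genes had log2 fold changes of 0.74 (IMA1), 1.19 (IMA2) and 1.41 (IMA3), with edgeR adjusted p = 0.455, 0.237 and 0.229. IMA3, for instance, stood at 2.09, 2.10 and 4.05 CPM in the line and 1.05, 1.05 and 0.899 in the pool.

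Counted by separation, 6 of the 9 tested members had every line library above every pool library, where 12.7% of all genes did. These were BHLH38, BHLH100, the 3 IMA genes and PYE (log2 fold change 0.47). The members' median log2 fold change was 1.19, beside -0.01 over all genes. BTS (0.19) and FRO3 (0.03) overlapped between line and pool. None of the other iron genes on the lists was called in this comparison, of 9 upstream regulators, 6 of 11 root uptake genes, 12 of 14 transport and chelation genes and 8 of 10 storage and leaf reductase genes that could be tested. The root markers summed to 0.836 to 1.01 CPM in the line and 0.743 to 0.866 in the pool, and their part in the result was not tested.

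VP16-02-003 was set against VP16 pool 2 for the same question. Members fell together: 6 of 9 tested were called, all lower, where 29.1% of all genes were called and 13.8% lower. They were BHLH100, BHLH101, all 3 IMA genes and BTS. Of the tested members, 8 had every line library below every pool library, where 21.9% of all genes did, and the exception was PYE. The members' median log2 fold change was -1.92, beside 0.01 over all genes. Depth differed as well, at 12161681 to 13355417 reads in the line and 21302302 to 35316482 in the pool, and its part in the result was not tested.

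IMA1 stood at 1.10, 0.638 and 0.764 CPM in the line and at 3.05, 3.02 and 2.92 in the pool. The pool libraries were close to each other and lay far above the line's. IMA1 fell by 1.85 on the log2 scale (SE 0.39, edgeR adjusted p = 0.00142). IMA2 stood at 0.787, 0.638 and 1.22 CPM against 3.30, 3.19 and 3.70, and fell by 1.94 (log2, SE 0.45, edgeR adjusted p = 0.00308). IMA3 stood at 0.944, 0.496 and 0.917 CPM against 2.57, 2.82 and 3.60, and fell by 1.92 (log2, SE 0.55, edgeR adjusted p = 0.0115). For each IMA gene the lowest pool library was more than 2 times the highest line library. The calls of IMA1 and IMA2 held whichever library was left out, and IMA3 had an edgeR adjusted p of 0.0622 without VP16-02-003 B.

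BHLH100 had 1 read in each line library and 22, 23 and 9 in the pool, or 0.0787, 0.0709 and 0.0764 CPM against 0.763, 0.649 and 0.438. The depth-scaled ratio of pool over line was 8.47 (exact 95% interval 2.75 to 42.3, counting error only). Its log2 fold change was -2.97 (SE 0.85, edgeR adjusted p = 0.0118), and the call held whichever library was left out. BHLH101 had a single read, in line library C, against 8, 9 and 6 in the pool, a depth-scaled ratio of 10.8 (exact 95% interval 1.76 to 445.7). It was called (log2 fold change -3.17, SE 1.03, edgeR adjusted p = 0.0238), but not without VP16-02-003 A or B (edgeR adjusted p = 0.0803 and 0.0996).

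BHLH38 stood at 0.157, 0.0709 and 0.0764 CPM in the line and 0.243, 0.451 and 0.535 in the pool, separate but not called (log2 fold change -1.94, SE 0.89, edgeR adjusted p = 0.102). BHLH39 had 4 reads in the line and 9 in the pool and overlapped. BTS, the ligase, stood at 71.8, 74.3 and 67.5 CPM in the line and 94.7, 105.4 and 75.8 in the pool. It fell by 0.37 (log2, SE 0.11, edgeR adjusted p = 0.0124), but the call was lost without pool library B or line library C (edgeR adjusted p = 0.0602 and 0.0563). PYE had a log2 fold change of 0.20 and FRO3 of -0.20 (edgeR adjusted p = 0.497 and 0.242).

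Other iron genes were called in both directions in VP16-02-003, where 29.1% of all genes were called and 13.8% lower. With calls that common, a few called genes on a list are no result about that list. Of 9 upstream regulators 3 were higher and 1 lower, of 6 tested root uptake genes 1 was higher and 1 lower, of 12 tested transport and chelation genes 1 was higher and 7 lower, and of 8 tested storage and leaf reductase genes 2 were lower. F6'H1, an enzyme of coumarin synthesis, had the largest change, with 6.59 ± 5.45 CPM in the line and 1.19 ± 0.717 in the pool (SD, n = 3 each) and a log2 fold change of 2.46 (edgeR adjusted p = 0.0178). FRO2, the root-surface ferric reductase, stood at 0.625 ± 0.146 against 1.42 ± 0.216 CPM (SD, n = 3 each) and fell by 1.18 on the log2 scale (edgeR adjusted p = 0.00641). The nicotianamine synthases NAS3 and NAS4 fell by 1.13 and 1.04, the leaf reductase gene FRO7 by 1.02 and OPT3, a phloem transporter for iron, by 0.80 (log2, edgeR adjusted p = 0.0314, 0.00545, 0.000342 and 0.00101). Beside the root uptake genes, the root markers summed to 0.687 to 1.34 CPM in the line and 0.451 to 1.07 in the pool, with VP16-02-003 A the highest of all 30 libraries. Their part in the result was not tested.

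**Figure D3:**
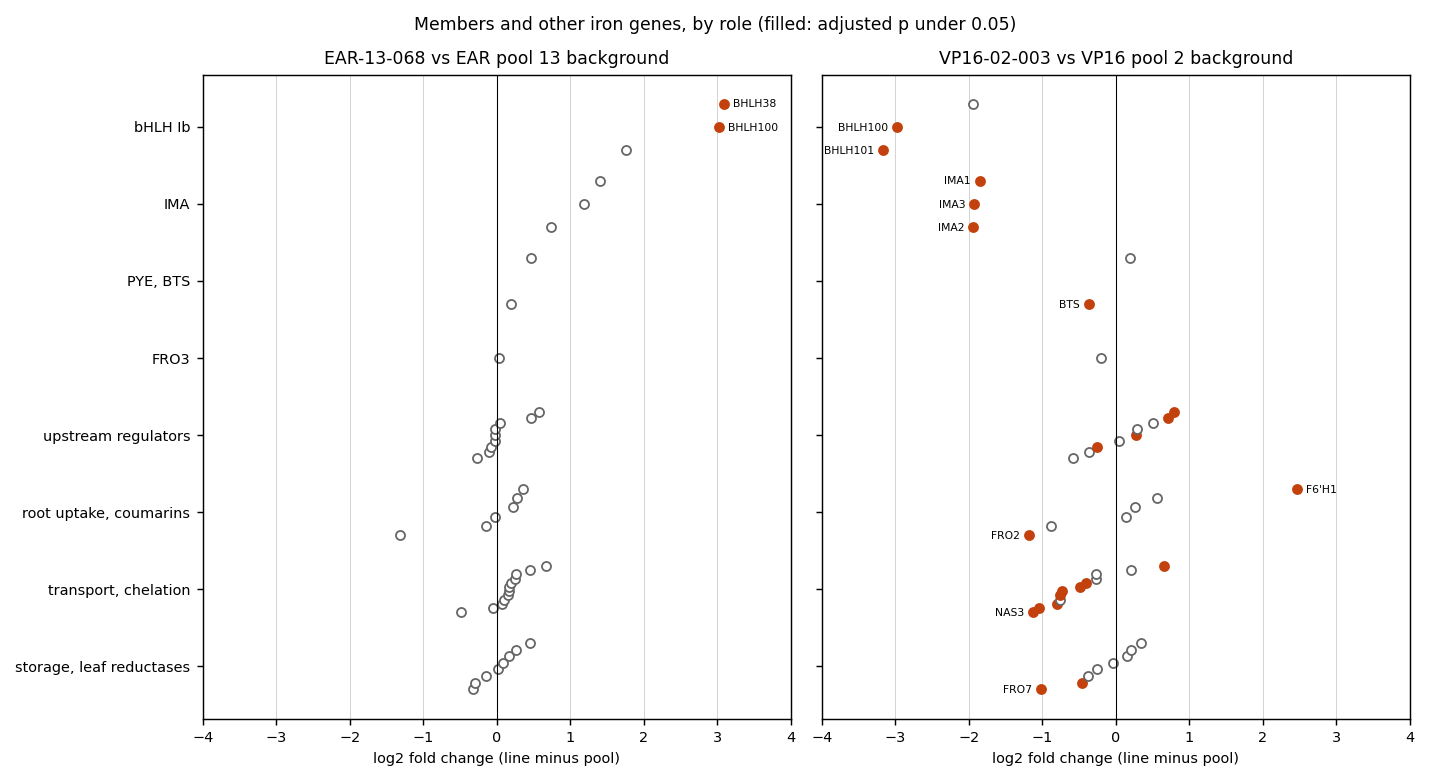
Log2 fold change (x axis) of the tested members and the other tested iron genes, by role (y axis), in EAR-13-068 against EAR pool 13 (left) and VP16-02-003 against VP16 pool 2 (right); each point is a gene and filled points have an adjusted p under 0.05. On the left, filled points are BHLH38 (3.09) and BHLH100 (3.02); on the right, 6 members are filled below 0 and other iron genes are filled on both sides.

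VP16-05-014 was set against VP16 pool 5. Of the 9 tested members 0 were called by edgeR, where 1.5% of all genes were. Only BTS had an unadjusted p under 0.05, which 19.8% of all genes had, and DESeq2 called BTS, giving no adjusted p for the 3 Ib genes. Of the tested members 3, BHLH100, BTS and FRO3, had every line library below every pool library, where 8.21% of all genes did. BTS stood at 76.5, 73.3 and 86.4 CPM in the line and 99.5, 96.4 and 109.0 in the pool without overlap (log2 fold change -0.37, SE 0.11, edgeR adjusted p = 0.0726). The result depends on line library C, where the IMA genes were high. Without it 4 members were called, all lower: IMA1 (log2 fold change -1.05, edgeR adjusted p = 0.0307), IMA2 (-1.25, 0.0288), IMA3 (-2.01, 0.00659) and BTS (-0.45, 0.00654). With all libraries the IMA genes had log2 fold changes of -0.36, -0.46 and -0.92 (edgeR adjusted p = 0.572, 0.533 and 0.273). Without the 5 libraries that stand apart, PYE was called as well (log2 fold change -0.54, edgeR adjusted p = 0.0459), which made 5. The 1.5% of all genes belongs to the fit with all libraries. No such share is given for the fits without libraries, so these counts cannot be set against all genes.

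EAR-15-025 and EAR-15-053 share EAR pool 15 as their control, and neither had a called member, where 0.0511% and 0.00511% of all genes were called. Members with an unadjusted p under 0.05 numbered 0 and 1 (BTS in EAR-15-053, log2 fold change 0.23), beside 8.84% and 5.79% of all genes. DESeq2 called 0 in both, but gave an adjusted p for BTS alone of the 9 in EAR-15-025 and for PYE, BTS and FRO3 alone in EAR-15-053. In EAR-15-025, BHLH101 had 0.377, 0.251 and 0.277 CPM against 0.106, 0.104 and 0.161 in the pool, a log2 fold change of 1.26 (SE 0.69, edgeR adjusted p = 0.622). In EAR-15-053, BHLH38 had 0.382, 0.281 and 0.242 CPM against 0.0532, 0.208 and 0.107, a log2 fold change of 1.24 (SE 0.83, edgeR adjusted p = 0.866). Both were separate from the pool and did not pass the test. In EAR-15-025 such separation, line above pool, was seen for 2 members, BHLH101 and FRO3, where 9.16% of all genes showed it, and in EAR-15-053 for 4 members, BHLH38, BHLH100, IMA2 and BTS, where 6.5% did. Set against each other, the lines differed in 0 members by edgeR, where 0.0153% of all genes differed, and in 1 by the unadjusted p, where 9.71% did. That member was IMA2, whose means were 0.948 ± 0.450 CPM in EAR-15-025 and 2.15 ± 0.692 in EAR-15-053 (SD, n = 3 each), with a log2 fold change of -1.15 (edgeR adjusted p = 0.425). DESeq2 also called 0 there.

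**Figure D4:**
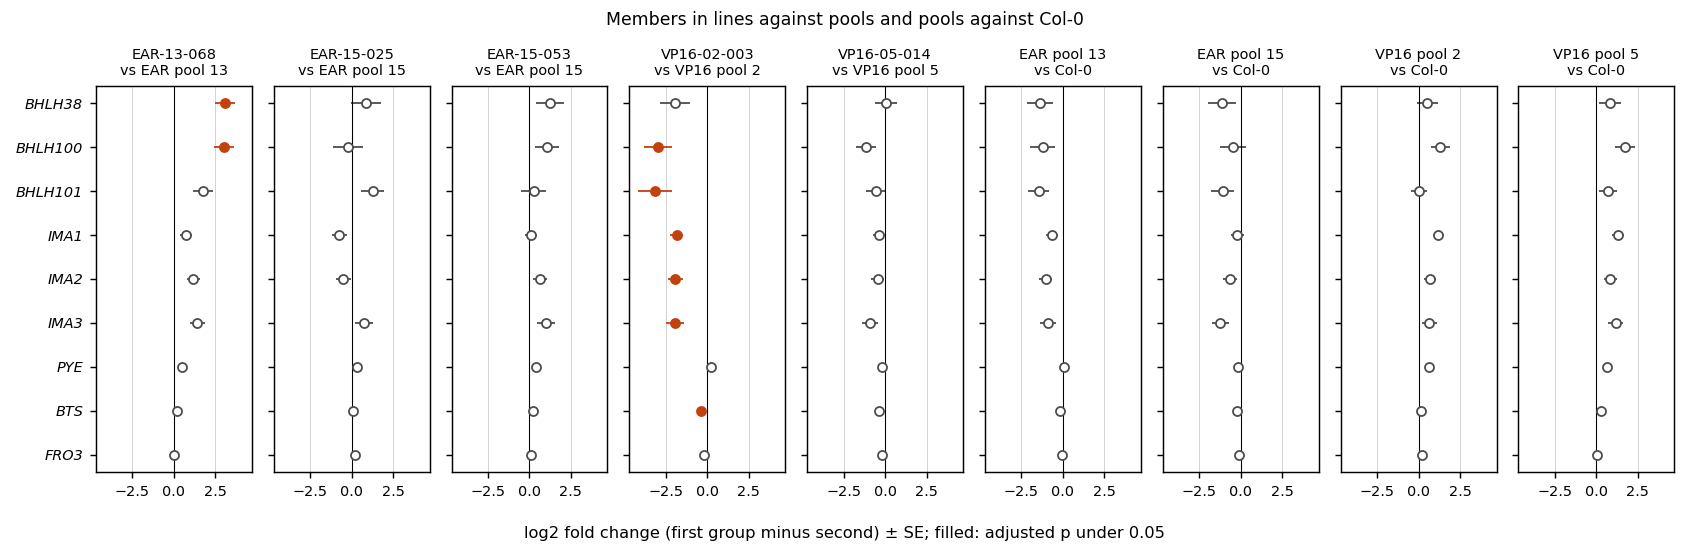
Log2 fold change (x axis, first group minus second) with its SE as bars for the 9 tested members (y axis) in the 5 lines against their pools and the 4 pools against Col-0; filled points have an adjusted p under 0.05. Filled points appear in EAR-13-068 (BHLH38 and BHLH100, right of 0) and VP16-02-003 (6 members, left of 0).

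The effects of lines were also compared with each other, as the line-minus-pool difference of one line less that of another, over 10 pairs of lines. Of 90 member-by-pair tests 16 were called, and 29 both without VP16-05-014 C and without the 5 libraries that stand apart. EAR-13-068 and VP16-02-003 differed in 7 of 9 members, where 22.4% of all genes differed. For BHLH38 that difference was 5.04 on the log2 scale (SE 1.05, edgeR adjusted p = 0.00207), and for IMA2 it was 3.12 (SE 0.60, edgeR adjusted p = 0.00109). EAR-15-053 and VP16-02-003 differed in 5 members, where 16.2% of all genes did, and EAR-15-025 and VP16-02-003 in 3, where 16.7% did. For EAR-13-068 and VP16-05-014 BHLH100 alone passed, where 1.19% of all genes did, and without VP16-05-014 C 7 members did (BHLH38, BHLH100, IMA1, IMA2, IMA3, PYE and BTS). Shares of all genes in these comparisons of lines are from the fit with all libraries. None is given for fits without libraries, so counts of members from those cannot be set against all genes. No member passed edgeR's test in the other 6 pairs. Members with an unadjusted p under 0.05 numbered 3 between EAR-13-068 and EAR-15-025 (4.71% of all genes, 0.0358% adjusted), 0 between EAR-13-068 and EAR-15-053 (3.97%, 0.0204%) and 1 between EAR-15-025 and EAR-15-053 (9.71%, 0.0153%). They numbered 3 each between VP16-05-014 and EAR-15-025 (16.6%, 0.654%), EAR-15-053 (14.6%, 0.204%) and VP16-02-003 (13.9%, 1.83%). In these pairs DESeq2 called 1 member, BTS, between EAR-15-053 and VP16-05-014, and gave no adjusted p for 3 members between EAR-15-025 and VP16-05-014 and 2 between the VP16 lines. Without VP16-05-014 C, IMA3 and BTS passed in edgeR between EAR-15-025 and VP16-05-014, and IMA2, IMA3, PYE and BTS between EAR-15-053 and VP16-05-014.

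The 4 pools were compared with Col-0. No pool had a called member by edgeR or DESeq2, which gave no adjusted p for BHLH38 and BHLH101 in VP16 pool 2, where 8.71% of all genes were called in EAR pool 13, 6.61% in EAR pool 15, 0.0153% in VP16 pool 2 and 0.00511% in VP16 pool 5. By the unadjusted p there were 2, 2, 3 and 6 members, where 23.3%, 22.6%, 11.1% and 9.79% of all genes passed. The medians of the members' log2 fold changes were -0.92 and -0.49 in the EAR pools and 0.64 and 0.82 in the VP16 pools, with medians over all genes of 0.01, 0.01, -0.01 and 0.00. These comparisons share the Col-0 libraries. In VP16 pool 2, IMA1 at 3.05, 3.02 and 2.92 CPM lay above Col-0 at 1.10, 1.55 and 1.47 (log2 fold change 1.18, SE 0.34, edgeR adjusted p = 0.196, and 0.0113 without the 5 libraries that stand apart). In VP16 pool 5 its log2 fold change was 1.29 (SE 0.35, edgeR adjusted p = 0.377, and 0.0197 without those 5 libraries).

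IMA3 lay lower in EAR pool 15, at 0.585, 1.04 and 0.805 CPM, than in Col-0 at 2.35, 1.44 and 1.63 (log2 fold change -1.23, SE 0.54, edgeR adjusted p = 0.172, and 0.0112 without the 5 libraries that stand apart). Members separate from Col-0 numbered 4 and 2 lower in EAR pools 13 and 15, where 16% and 13.7% of all genes were, and 4 and 5 higher in VP16 pools 2 and 5, where 9.34% and 10.5% were. Without the 5 libraries that stand apart, members were called in each pool against Col-0, 2 lower in EAR pool 13 (IMA2 and IMA3), 2 lower in EAR pool 15 (IMA3 and BTS), 3 higher in VP16 pool 2 (IMA1, PYE and BTS) and 4 higher in VP16 pool 5 (IMA1, IMA3, PYE and BTS). The shares of all genes called in the pools are from the fit with all libraries. None is given for this fit, so its counts cannot be set against all genes. Without Col-0 A, BHLH101 was called in EAR pool 13 (log2 fold change -2.15, edgeR adjusted p = 0.0493).

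Against Col-0, EAR-13-068 had 1 called member of 9, BHLH100, where 9.29% of all genes were called. It stood at 0.418, 0.701 and 1.74 CPM against 0.0999, 0.516 and 0.368, overlapping (log2 fold change 1.81, SE 0.57, edgeR adjusted p = 0.0457). The call was lost without Col-0 A (edgeR adjusted p = 0.279), Col-0 C (0.0690), EAR-13-068 B (0.0709) or EAR-13-068 C (0.208), and without Col-0 B BHLH38 was called too (0.0215). Without the 5 libraries that stand apart BHLH100 was not called (edgeR adjusted p = 0.154) and PYE was (log2 fold change 0.49, edgeR adjusted p = 0.0489). In the fit with all libraries, 6 other iron genes were higher by edgeR in EAR-13-068 than in Col-0. They were NAS3 (log2 fold change 1.29), FER2, a ferritin (1.06), FRO7 (1.02), YSL1, a metal-nicotianamine transporter (0.63), FRO6 (0.57) and OPT3 (0.52). These are 3 of 12 tested transport genes and 3 of 8 tested storage and reductase genes. None of those tested was lower.

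VP16-02-003 had 2 called members against Col-0, where 23.2% of all genes were called. PYE stood at 7.56, 5.53 and 6.57 CPM against 4.02, 3.09 and 3.63, all above Col-0, and rose by 0.84 on the log2 scale (SE 0.22, edgeR adjusted p = 0.00811). BHLH101, with 1 read against 17, was lower (log2 fold change -3.15, SE 1.07, edgeR adjusted p = 0.0349), a call lost without VP16-02-003 A (0.109) or B (0.130) or Col-0 B (0.0945) or C (0.0536). The IMA genes did not pass the test there, and for IMA2 the log2 fold change was -1.26 (SE 0.48, edgeR adjusted p = 0.0595) and for IMA3 -1.28 (0.112). That depends on the fit: IMA2 was called, as lower, by DESeq2 (adjusted p = 0.0278), by edgeR on the 6 libraries alone (0.00960) and without the 5 libraries that stand apart (0.0195), and IMA3 by edgeR in the latter pair of fits (0.0113 and 0.00728). Of 9 upstream regulators 2 were higher, of 6 tested root uptake genes 2 were higher, and 1 gene each of 12 tested transport and 8 tested storage and reductase genes was lower. Beside these counts stand the 23.2% of all genes called, so they are no result about the lists. Higher on the log2 scale were F6'H1 (4.65), BTSL2, a ligase related to BTS (0.82), AHA2, a plasma membrane proton pump (0.42) and ILR3, a subgroup IVc factor (0.25). Lower were FRO6 (-0.68) and IREG1, an iron exporter (-0.57). EAR-15-025, EAR-15-053 and VP16-05-014 had 0 called members against Col-0 by edgeR, where 4.34%, 10.8% and 0.526% of all genes were called, with 2, 0 and 2 members passing by the unadjusted p, beside 18.3%, 27.2% and 14.4% of all genes. DESeq2 called 0 as well, with no adjusted p for BHLH38, BHLH100 and BHLH101 in EAR-15-025 and VP16-05-014. Without the 5 libraries that stand apart, IMA1 and IMA2 were called in EAR-15-025, both lower (log2 fold change -1.29 and -1.51, edgeR adjusted p = 0.0453 and 0.0320), and 5 members were called in VP16-02-003, BHLH101, IMA2, IMA3, BTS and PYE. No share of all genes is given for that fit.

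The Ib and IMA genes were also set side by side over the 10 group means. The mean standardised log2 CPM of the 4 Ib genes and that of the 3 IMA genes correlated at r = 0.77. The median r of all genes against the Ib profile was 0.01, but positive and negative values cancel in it. It is therefore no yardstick for 0.77, and single genes outside the members reached 0.93 and -0.92. How often 2 such profiles would reach 0.77 over 10 groups was not tested. The correlation is a description over 10 groups that differ in depth, for instance 10637917 to 29125793 reads in VP16 pool 5 and 29262808 to 37499684 in EAR pool 13. A fixed 2 was added to each count before the log2, which lifts low counts more in shallow libraries. The part of depth in these profiles was not tested. Members correlated with the IMA profile from 0.29 (FRO3) and 0.43 (PYE) to 0.90 (BTS) outside the IMA genes and 0.91 (BHLH100). VP16 pool 2 stood at 0.17 for Ib and 1.26 for IMA, EAR-15-025 at 0.03 and -1.03, and EAR-13-068 at 1.14 and 0.45.

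**Figure D5:**
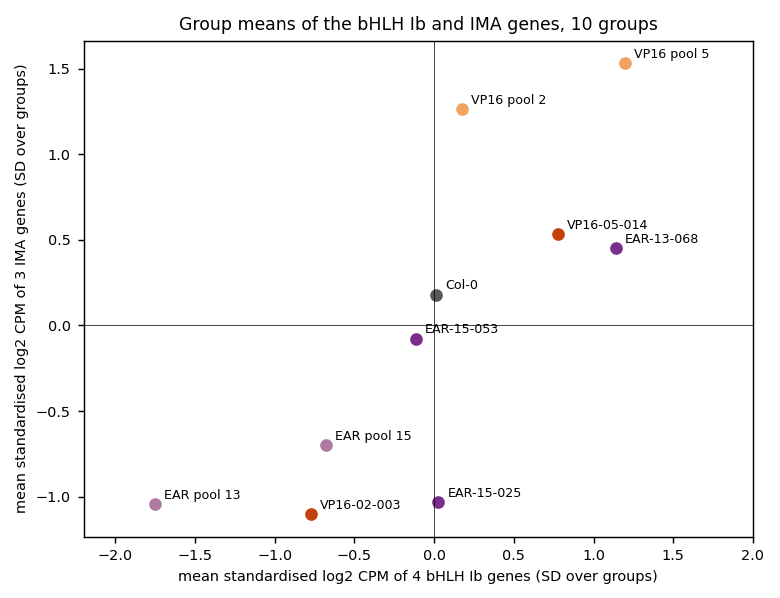
Mean standardised log2 CPM of the 4 subgroup Ib genes (x axis, SD over groups) against that of the 3 IMA genes (y axis, SD over groups); each point is 1 of 10 group means. VP16 pool 5 is at the upper right (1.20, 1.53), EAR pool 13 (-1.75, -1.04) and VP16-02-003 (-0.78, -1.10) at the lower left. In mean CPM, VP16-02-003 was below EAR pool 13 for BHLH100 (0.0753 and 0.109) and BHLH101 (0.0255 and 0.0889). It was above for BHLH38 (0.102 and 0.0984) and BHLH39 (0.0971 and 0.0816). VP16-02-003 had 12161681 to 13355417 reads and EAR pool 13 29262808 to 37499684, and the part of depth in their places was not tested.

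Among 19557 tested genes outside the members, those most like the Ib profile were AT1G59920 (r = 0.93), OCT3 (0.91), PROPEP1 (0.91), AT1G18335 (0.88), AT5G13920 (0.88) and AGL94 (0.88), and those least like it were NUDT7 (-0.92) and UREG (-0.90), over the 10 group means. With 10 points and that many genes, these values are a ranking only, and the limit of depth given for the profiles holds for them too.

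Members that overlap another annotated gene carry a further limit, since the sources used here do not say whether reads were assigned by strand. BHLH38 shares 386 exon bases with PIP5K4, BHLH101 79 with GLU1, FRO3 24 with LPR1, and IMA3 78 and 330 with AT2G30760 and CYP71A13, all on the opposite strand. In VP16-02-003, CYP71A13 stood at 12.6 ± 6.62 CPM and in the pool at 4.93 ± 2.10 (SD, n = 3 each), higher by 1.35 on the log2 scale (edgeR adjusted p = 0.0121), in the direction opposite to IMA3. In EAR-13-068, PIP5K4 had a log2 fold change of -0.09 (edgeR adjusted p = 0.910), against 3.09 for BHLH38. BHLH39, BHLH100, IMA1, IMA2, PYE and BTS overlap no annotated gene.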

How the data were processed

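Total RNA of shoots was sequenced on an Illumina platform, per the labels' protocols. The authors deposited 1 table of raw read counts per gene for each of 30 libraries. TopHat2 2.0.5, HTSeq and the build TAIR10 are named in the submitters' processing notes. The counting mode and the strand setting are not given in the sources used here. The 5 entries that name no gene were left out; reads without a feature came to 0.765% to 1.94% of a library and ambiguous reads to 1.32% to 1.48%.

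Genes were kept with edgeR 4.0.16 (R 4.3.3, filterByExpr by group, minimum count 10), which left 19566. Counts were scaled by TMM, and all 30 libraries entered 1 quasi-likelihood fit with 10 group means. P-values were adjusted by Benjamini-Hochberg over those genes, and genes under 0.05 were called. Fold changes are those of edgeR's fit at its default prior count, and SEs come from the F statistic. A prior count of 2 was used only for the log2 CPM behind the group profiles and their correlations. CPM are counts scaled to TMM-adjusted library size. Count ratios have exact 95% intervals that cover counting error only. The code was tested on simulated data.

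The members and the gene lists were chosen with earlier results of these data known. Every member is named. Other iron genes are counted by list and named in the results only where a comparison called a member, at most 6 by size of change. Comparisons without a called member had called iron genes as well. In EAR-15-025 against its pool, 2 of 8 tested storage and reductase genes were higher, where 0.0511% of all genes were called. Against Col-0, iron genes were called in EAR pool 13, EAR pool 15, EAR-15-025 and EAR-15-053. DESeq2 1.42.0, other scalings, no filter, a block on the library letter, fits to 2 groups and fits without libraries were the alternatives. No 2 libraries held identical counts, and replicate pairs differed beyond sampling noise (chi-square per degree of freedom 3.43 to 56.3). Sequences were read from the RefSeq TAIR10.1 assembly, in which all 10 loci were found.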

Additional observations from a re-analysis of the deposited data

Results flagged for a closer look

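The values below are differences between line effects (line minus its pool, in one line less the same in another) for which the test of the difference itself passed an adjusted p of 0.05 in edgeR. They are 16 of 90 tests (29 without VP16-05-014 C, and 29 without the 5 libraries that stand apart), on the log2 scale, and each line has 3 libraries and its pool 3. No share of all genes is given for the fits without libraries. Between EAR-13-068 and VP16-02-003 the difference was 5.99 for BHLH100 (adjusted p = 0.000418), 5.04 for BHLH38 (0.00207) and 4.92 for BHLH101 (0.00498). For the IMA genes it was 2.58 for IMA1 (0.00188), 3.12 for IMA2 (0.00109) and 3.33 for IMA3 (0.0025), and for BTS it was 0.56 (0.0114). These 7 held under every alternative tried.

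Between EAR-13-068 and VP16-05-014 the difference for BHLH100 was 4.16 (edgeR adjusted p = 0.0223). Between EAR-15-025 and VP16-02-003 it was 4.43 for BHLH101, 2.67 for IMA3 and 0.45 for BTS (edgeR adjusted p = 0.0184, 0.0244 and 0.0423). Between EAR-15-053 and VP16-02-003 it was 4.02 for BHLH100, 1.93 for IMA1, 2.59 for IMA2, 2.89 for IMA3 and 0.60 for BTS (edgeR adjusted p = 0.0190, 0.0204, 0.00730, 0.0147 and 0.0104). VP16-02-003 and its pool enter 15 of the 16 differences.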

How the results depend on the processing

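Over single members, 980 alternative values kept their direction and their side of the threshold, 46 no longer passed it and 27 newly passed it. No value changed sign while called. With counts of called members added, which repeat the same calls, these numbers were 1176, 63 and 42. A count among the 1176 can still have changed, as in VP16-02-003 against its pool, with 4 to 6 called members. DESeq2 gave 1 called member in EAR-13-068 against its pool, with no adjusted p for BHLH38 or BHLH101, 0 in EAR-13-068 against Col-0 and 1 in VP16-05-014 against its pool. Without the count filter EAR-13-068 against Col-0 had 0. Fits to the 2 groups alone gave 0 in EAR-13-068 against its pool, 4 in VP16-02-003 against its pool, where BHLH38, BHLH100 and BHLH101 did not pass that fit's filter and the other 4 calls were made, and 2 in EAR pool 13 and 1 in EAR pool 15 against Col-0. Against Col-0 VP16-02-003 had 3 called members by DESeq2 and 3 in the fit to 2 groups, which did not test the Ib genes. Without the 5 libraries that stand apart, there were 5 in VP16-05-014 against its pool, and against Col-0 there were 2 in EAR pool 13, 2 in EAR pool 15, 2 in EAR-15-025, 3 in VP16 pool 2, 4 in VP16 pool 5 and 5 in VP16-02-003, and 29 differences between line effects. Leaving out 1 library at a time gave 0 to 2 in EAR-13-068 against its pool and against Col-0, 4 to 6 in VP16-02-003 against its pool and 1 to 2 against Col-0, 0 to 4 in VP16-05-014 against its pool, 0 to 1 in EAR pool 13 against Col-0, and 12 to 29 differences between line effects, the highest without VP16-05-014 C. The cause was not tested, and the shares of all genes called under these alternatives are not given here. Library letters carry no stated pairing; in 1 of 15 comparisons, EAR pool 15 against Col-0, every same-letter pair correlated above 0.1. With the letter as a block, EAR-13-068 against Col-0 had 0 called members (BHLH100, edgeR adjusted p = 0.0530), and no other count of called members left its side of the threshold, with 6 in VP16-02-003 against its pool and 16 differences between line effects. The Ib genes have 109 to 248 reads over all 30 libraries, which limits any change in them that can be seen.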

Other observations

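The ferritin gene FER1 (AT5G01600), a leaf gene known to respond to iron, had 7 reads over all 30 libraries, 0 to 2 per library, while AT5G01595 on the opposite strand, whose span overlaps it by 1334 bases with 0 exon bases shared, had 584 reads, 7 to 40 per library.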
